A study of Homo sapiens with 4 samples.

Results

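Later intron peaks were the accessible regions that the deposited annotation placed in an intron other than the first intron of a transcript. They were chosen by that annotation alone, without any measured value, and numbered 2724 of the 20556 peaks (13.3%) in the authors' first deposited table. A further 1557 intron peaks of that table lay in a first intron. The assay was ATAC-seq, which reads out open chromatin from the sites where a transposase inserts adapters, and the cells were Kasumi-1, a line of acute myeloid leukaemia with the t(8;21) translocation. SETD8, now named KMT5A, was knocked out with CRISPR/Cas9 in 2 libraries labelled sgSETD8, and 2 libraries labelled sgNT had the genotype WT, so the compared groups shared the cell line and differed in the guide. The time between editing and harvest, and whether a group was a clone or a pool of edited cells, are details not analysed here. Nor do the labels say whether the 2 libraries of a group came from separate cultures. The first table gives the treated against control comparison without naming its libraries, so the spread behind its p-values, technical or not, is unknown. Whether it shares libraries with the second table is also unknown, so likeness between the tables cannot be read as an independent repeat. The second compares the 2 libraries labelled #2, 1 knockout and 1 control, so its p-values cannot measure spread within a group. The labels do not say whether #2 marks a replicate or a second guide.

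Introns hold many of the regulatory elements of a gene, including enhancers that act on the start site of the same gene or of a neighbour, and start sites of shorter transcripts. Transcription factors of blood cells, among them RUNX1, the partner of RUNX1T1 in the t(8;21) fusion protein, bind many such elements. KMT5A is the enzyme that places a single methyl group on lysine 20 of histone H4, a mark found over transcribed gene bodies and linked to chromatin compaction and the cell cycle.

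A small subset of the later intron peaks lay at or next to RefSeq start sites. Of the 2724 peaks, 28 (1.03%) overlapped a RefSeq promoter window, which runs from 250 bases before to 50 bases after a start. These 28 peaks touched 31 windows, and 9 of the windows belonged to the gene whose later intron held the peak, in 7 genes. In 26 windows the start itself lay in the peak, so some of the 28 start-site peaks held no start. For 6 of those genes the 250 bases before the start, in the direction of transcription, are printed here, because in these the intronic peak and a start site of the same gene coincide. Sequence and coordinates are from RefSeq, assembly GRCh38.p14. Capitals mark matches, on either strand, to short motifs of the RUNX, GATA, ETS, C/EBP, AP-1 and E-box families, whose letters are given after the sequences.
TET1 (chr10:68600018-68600267, plus strand): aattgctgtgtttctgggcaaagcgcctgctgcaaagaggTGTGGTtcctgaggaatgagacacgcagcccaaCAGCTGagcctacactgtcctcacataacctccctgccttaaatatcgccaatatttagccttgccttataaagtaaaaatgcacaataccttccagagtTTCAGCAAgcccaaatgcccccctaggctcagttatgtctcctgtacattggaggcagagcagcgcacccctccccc
ZSCAN12 (chr6:28383440-28383689, minus strand): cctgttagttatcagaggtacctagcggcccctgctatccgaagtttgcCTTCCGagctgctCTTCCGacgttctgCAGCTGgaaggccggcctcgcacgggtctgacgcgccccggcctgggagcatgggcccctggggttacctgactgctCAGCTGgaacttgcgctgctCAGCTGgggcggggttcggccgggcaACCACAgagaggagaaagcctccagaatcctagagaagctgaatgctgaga
HDAC4 (chr2:239267515-239267764, minus strand): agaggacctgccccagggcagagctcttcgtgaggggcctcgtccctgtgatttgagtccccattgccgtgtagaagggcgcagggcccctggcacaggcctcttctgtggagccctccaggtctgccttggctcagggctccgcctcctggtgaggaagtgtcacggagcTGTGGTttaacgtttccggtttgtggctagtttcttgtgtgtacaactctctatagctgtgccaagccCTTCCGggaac
RNF220 (chr1:44423751-44424000, plus strand): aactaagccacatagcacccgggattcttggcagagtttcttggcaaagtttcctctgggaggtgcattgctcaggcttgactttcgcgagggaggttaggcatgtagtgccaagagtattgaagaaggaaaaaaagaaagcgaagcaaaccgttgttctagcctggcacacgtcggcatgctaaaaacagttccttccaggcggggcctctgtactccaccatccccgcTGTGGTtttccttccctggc
MAST3 (chr19:18117737-18117986, plus strand): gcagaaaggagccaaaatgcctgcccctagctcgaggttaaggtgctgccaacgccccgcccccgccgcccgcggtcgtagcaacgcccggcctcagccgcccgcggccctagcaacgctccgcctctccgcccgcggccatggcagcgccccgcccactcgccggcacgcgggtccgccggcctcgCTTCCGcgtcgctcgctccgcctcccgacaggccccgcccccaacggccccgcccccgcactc
PDE8B (chr5:77180054-77180303, plus strand): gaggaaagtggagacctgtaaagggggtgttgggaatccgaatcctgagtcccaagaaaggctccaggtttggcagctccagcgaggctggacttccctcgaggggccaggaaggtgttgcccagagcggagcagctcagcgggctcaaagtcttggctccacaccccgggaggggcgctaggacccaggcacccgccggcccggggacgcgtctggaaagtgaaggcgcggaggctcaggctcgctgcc

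In these stretches no match overlapped another. Of the 250 bases of the TET1 stretch, 183 lay in the peak, and its RUNX letters lay outside the peak. The other printed stretches lay wholly in their peaks. The RUNX letters stood in the stretches of TET1, ZSCAN12, HDAC4 and RNF220, the ETS letters in those of ZSCAN12, HDAC4 and MAST3, and PDE8B had no match to any motif searched. Over whole windows of 300 bases, the RUNX letters TGTGGT occurred in 29.0% of the 31 windows and in 13.1% of all 34943 RefSeq windows. The letters searched for ETS factors, CGGAAG, occurred in 32.3% of these windows against 19.4% of all. The E-box CAGCTG, bound by basic helix-loop-helix factors, occurred in 32.3% against 17.9%. For the C/EBP family, which drives myeloid differentiation, TTGCNNAA was found in 12.9% against 10.5%. The AP-1 letters TGANTCA, where N is any base, occurred in 9.68% against 7.72%. For GATA factors, which govern erythroid and stem cell genes, AGATAA was found in 3.23% against 10.4%. Some of the 31 windows overlap each other. By peak, of 28, the letters were found at 7 for RUNX, 9 for ETS, 9 for the E-box, 4 for C/EBP, 3 for AP-1 and 1 for GATA. No test was made on these few windows, and a match of letters is a description of the sequence, not of binding.

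TET1, a dioxygenase that oxidises 5-methylcytosine in DNA, had the strongest of these start-site peaks among the printed genes, with a mean of 254 normalised reads in the first table. Its log2 fold change, knockout against control, was -1.28 in the authors' first deposited table. In the second table the TET1 peak had 137 knockout reads and 331 normalised control reads, and stood at -1.27 in the authors' second deposited table. The peak of MAST3, a microtubule-associated kinase, had 164 knockout and 302 control reads, with -0.29 in the authors' first deposited table, against -0.89 in the second. ZSCAN12, a zinc finger protein with a SCAN domain, had 72 knockout and 155 control reads, with -0.51 and -1.11 in the authors' first and second deposited tables. In all 3 the knockout library held fewer reads than the control library, as it did over nearly the whole table. HDAC4, a class IIa histone deacetylase, stood at -0.04 in the authors' first deposited table, RNF220, a ubiquitin ligase, at -1.03, and PDE8B, a cyclic AMP phosphodiesterase, at -1.37, with no joined peak in the second. Over the 28 start-site peaks the median log2 fold change in the authors' first deposited table was -0.75, beside -0.74 for the other later intron peaks. Their median level was 100 normalised reads against 74.5, and 12 of 28 (42.9%) had a counterpart in the second table against 19.4% of the others.

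Later intron peaks were narrow and weak. The median width was 479 bp (range 195 to 1850), against 724 bp for promoter peaks and 602 bp for all peaks. Per kilobase of peak, the median level was 162 normalised reads for later introns, 174 for first introns, 165 for distal intergenic peaks and 289 for promoters. Without division by width the median level was 75.1 normalised reads (range 14.3 to 1218), and 552 peaks (20.3%) reached the median of the table. The median intron number was 3 and the highest was 89. Intron 2 held 876 peaks, introns 3 to 5 held 991, introns 6 to 10 held 456 and later ones 401, while 540 peaks lay in the last intron of their transcript. The distance to the nearest start used by the deposited annotation was 17863.5 bp at the median. It was always over 3000 bp, since closer peaks are annotated as promoter. That annotation did not count the RefSeq starts under the peaks described above. For 1902 peaks the nearest start belonged to the host gene, and for 567 to another gene. Host transcripts were matched to 1763 gene symbols, of which 1315 held 1 later intron peak and 25 held 5 or more. Protein-coding genes hosted 2163 peaks and long non-coding or antisense RNAs 274.

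In the first table most later intron peaks were lower in the knockout, by a little less than the typical peak of the table. As a median, the log2 fold change stood at -0.74 in the authors' first deposited table (quartiles -1.15 and -0.30, range -2.99 to 2.18), against -0.87 for all peaks. Values below 0 were found for 2335 of 2724 peaks (85.7%) in the authors' first deposited table, where the background over all peaks was 92.3%. Lower by at least 1, which is to at most 50% of the control level, were 936 peaks (34.4%, background 38.9%). Higher by at least 1 were 31 peaks (1.14%, background 0.511%), beside 1.03% of first intron and 1.40% of distal intergenic peaks. Not 1 of the 2724 peaks passed an adjusted p of 0.05 (background 0%), the smallest adjusted p in the authors' first deposited table being 0.731. At an unadjusted p under 0.05, 82 peaks (3.01%, background 1.6%) were listed in the authors' first deposited table, 76 of them lower. That share was 2.89% for first intron, 2.82% for distal intergenic and 0.73% for promoter peaks.

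The shift was shared by the whole table, so counts depended on how the libraries were scaled. After the median of all peaks was set to 0, 70 later intron peaks were lower by at least 1 (2.57%, background 1.98%) and 291 were higher (10.7%, background 5.52%). The share higher was much the same for first intron (10.7%) and distal intergenic peaks (10.6%), against 1.99% for promoter peaks. The shares lower were 2.18%, 2.70% and 1.59% in these classes. On that scale the later intron median in the authors' first deposited table was 0.13.

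Classes outside promoters lay close together. First intron peaks had a median of -0.78 in the authors' first deposited table, distal intergenic peaks -0.76 and promoter peaks -0.92. The quartile range of later introns was 0.85 wide, against 0.54 for promoters, which the flatter curve in the plot of cumulative shares by class shows. Medians by position inside the gene lay close together too. The medians were -0.77 in intron 2, -0.75 in introns 3 to 5, -0.73 in introns 6 to 10 and -0.65 in later introns of the authors' first deposited table. Peaks whose nearest start was that of the host gene stood at -0.74 and those nearer to another start at -0.70 in the authors' first deposited table. No test was made between classes, because peaks of 1 table are not replicates.

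**Figure D1:**
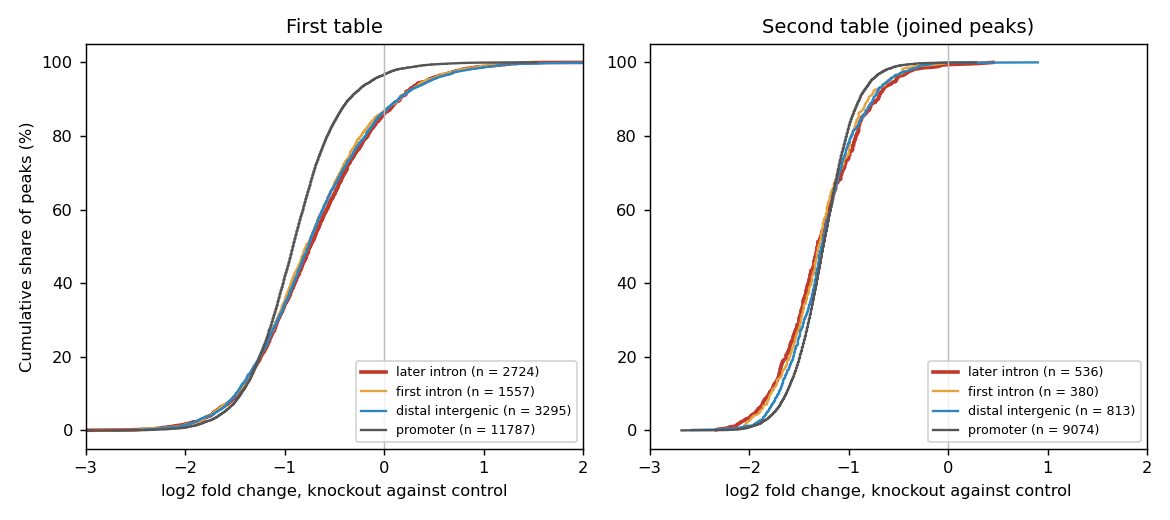
Cumulative share of peaks (vertical axis, percent) at or below each log2 fold change, knockout against control (horizontal axis, drawn from -3 to 2), 1 curve per annotation class, with all peaks of the first table at the left and joined peaks of the second at the right. At the left the later intron curve runs with those of first intron and distal peaks and is flatter than that of promoters (medians -0.74 and -0.92), and at the right the curves lie closer (-1.31 and -1.25).

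Peak level moved with the fold change. All peaks were split into 5 equal groups by level. In the weakest group, below 64.4 normalised reads, the 1118 later intron peaks had a median of -0.39 in the authors' first deposited table, and its other peaks -0.41. In the middle group, from 111 to 181 normalised reads, 478 later intron peaks stood at -1.01 and other peaks at -0.93 in the authors' first deposited table. The strongest group held 88 later intron peaks, with a median of -1.045, against -0.96 for other peaks in the authors' first deposited table. Later intron peaks were thus near other peaks of the same strength, with 41.0% of them in the weakest group. Once the trend by level was removed, the gap between later introns and promoters, from the authors' first deposited table, went from 0.18 to -0.0325. The differences from first intron peaks (0.04) and from distal intergenic peaks (0.02) both became 0.0075. Of the 31 peaks higher by at least 1, 30 lay in the weakest group, where they made up 2.68% of the later intron peaks, against 2.1% of other peaks.

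**Figure D2:**
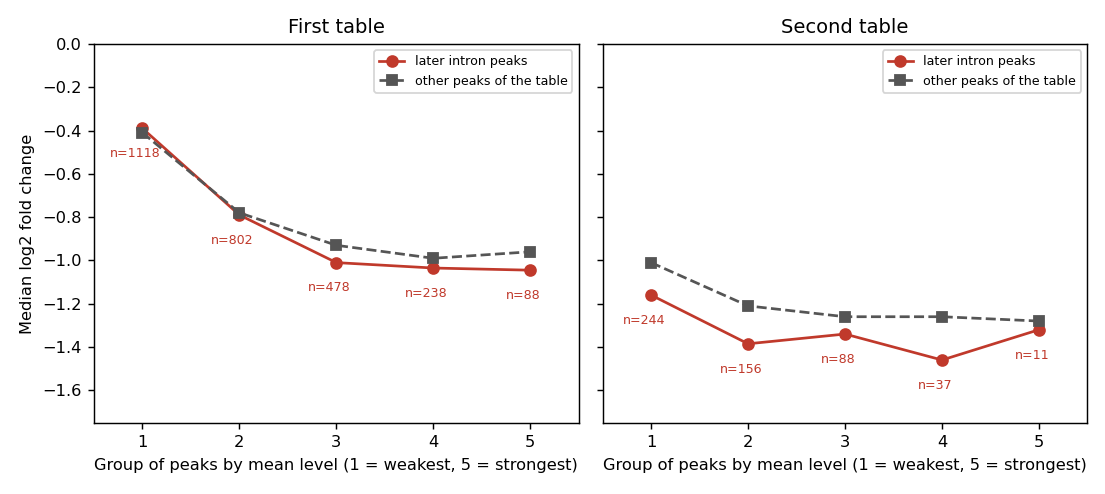
Median log2 fold change (vertical axis) in 5 equal groups of all peaks by mean level (horizontal axis, weakest at the left) for later intron peaks (circles, with their number) and other peaks (squares), first table at the left and second at the right. The later intron medians of the first table run from -0.39 in the weakest group to -1.045 in the strongest. At the right the other peaks include those without a counterpart in the first table.

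The second table allows each library to be read on its own. Of the 2724 later intron peaks, 536 (19.7%) overlapped a peak of that table by at least 1 bp, against 24.4% of first intron, 24.7% of distal intergenic and 77.0% of promoter peaks. These 536 were the stronger ones, with a median of 141 normalised reads in the first table against 65.6 for those without a counterpart. The knockout library held a median of 69.1 reads per joined peak (range 20 to 407), and the control library 171 normalised reads (range 34.1 to 1017). The ranges of the libraries overlapped, but within a peak the knockout library was nearly always lower. Over the whole table it also held fewer reads in peaks, 2091322 against 5339160 control reads, of which the control was scaled by 0.919 only, and the part of depth in these values was not tested. Values below 0 were found for 532 of 536 peaks (99.3%) in the authors' second deposited table, where the background was 98.6% over all its peaks and 99.9% over the 11203 peaks of the first table, of every class, that had a counterpart. At this depth counting error alone gave a 95% interval of about 0.404 on the log2 scale to either side of a peak's value. The table has 1 library per group, so a difference in it has no replicate check.

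The median of the 536 peaks was -1.31 in the authors' second deposited table (quartiles -1.56 and -0.99, range -2.33 to 0.45). It was -1.26 over joined peaks of every class and -1.23 over all peaks. Lower by at least 1 were 400 peaks (74.6%), below the background of 81.7% over joined peaks and 76.1% over all peaks. Higher by at least 1 were 0, as among all joined peaks (background 0%), against 0.133% of the whole table. Joined promoter peaks stood at -1.25, first intron peaks at -1.30 and distal intergenic peaks at -1.27 in the authors' second deposited table. With the trend by level removed, later intron peaks lay 0.135 below promoter peaks, from -0.135 against 0 in the authors' second deposited table. First intron (-0.10) and distal intergenic peaks (-0.08) were below promoters likewise, 0.035 and 0.055 above later introns. In the weakest of 5 level groups of the second table, 244 later intron peaks stood at -1.16 and other peaks at -1.01. In the strongest, 11 later intron peaks stood at -1.32 and other peaks at -1.28 in the authors' second deposited table. The other peaks of these groups include those without a counterpart in the first table. No later intron peak passed an adjusted p of 0.05 (background 0%), the smallest in the authors' second deposited table being 0.578, and 0 had an unadjusted p under 0.05 (background 0.0179% of joined and 0.14% of all peaks). After centring on the median of all peaks, 3 of the 536 were lower by at least 1 (0.560%) and 8 higher (1.49%). The background was 0.134% lower and 0.339% higher over joined peaks, and 0.206% and 2.04% over all peaks, which include those without a counterpart.

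**Figure D3:**
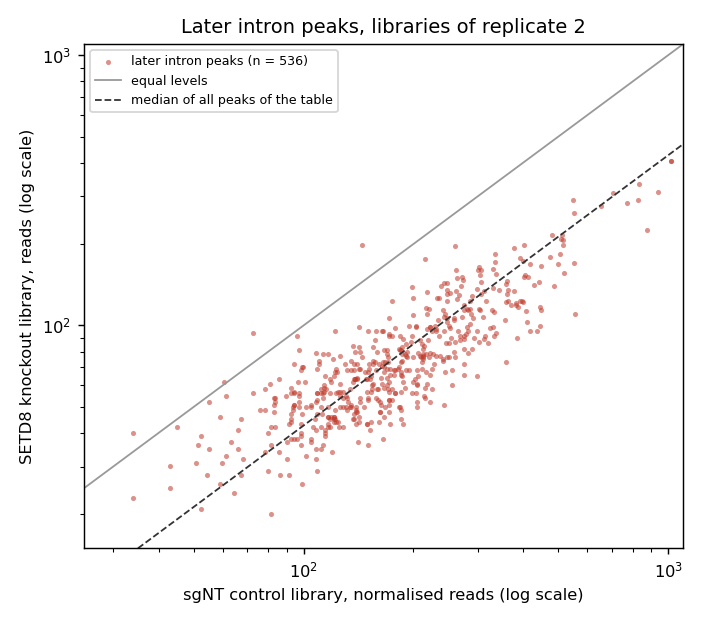
Reads of each of the 536 joined later intron peaks in the knockout library (vertical axis) against normalised reads in the control library (horizontal axis), both log axes, with lines for equal levels and for the median fold change of all peaks of the second table. In 532 peaks the point lies below the line of equal levels.

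Blood transcription factors were the best-known hosts. Of 51 listed genes, 11 held 28 later intron peaks, all 28 below 0 in the authors' first deposited table (92.3% over all peaks). Their median was -1.0 (range -1.7 to -0.08), beside -0.74 for later intron peaks and -0.87 for all peaks of the authors' first deposited table, and 14 (50%) were lower by at least 1, against 34.4% of later intron peaks and 38.9% of all peaks. Without the 7 peaks of FOXP1 the list median was -0.91 in the authors' first deposited table. Their median level was 95 normalised reads, above the 75.1 of the class. Here too 0 peaks passed the adjusted p.

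RUNX1, the gene cut by the translocation, held 5 later intron peaks. Its strongest, at chr21:35026682-35027389, had 112 knockout and 333 normalised control reads, with -1.63 in the authors' first deposited table, against -1.57 in the second. The peak at chr21:34911415-34911732 had 43 knockout and 139 control reads, with -0.21 in the authors' first deposited table, against -1.7 in the second. The other 3 RUNX1 peaks stood at -1.65, -1.09 and -0.24 in the authors' first deposited table. So the 5 peaks of 1 gene covered most of the range of the list. FOXP1, a forkhead repressor, held 7 peaks between -1.7 and -0.83 in the authors' first deposited table. Its strongest peak, with 556 normalised reads, had 151 knockout and 402 control reads in the second table. IKZF1, which encodes the lymphoid and myeloid regulator Ikaros, held peaks at -1.62 and -1.10 in the authors' first deposited table. BCL11A, a repressor of fetal globin, held 1 at -1.45 in the authors' first deposited table. ETV6, an ETS repressor needed by blood stem cells, held 5 peaks, of which 1 was lower by at least 1 (-1.19) in the authors' first deposited table. RUNX2 had the lowest value of the list in the second table, where its peak with 55 knockout and 214 control reads stood at -1.96 in the authors' second deposited table. The same peak stood at -0.83 in the authors' first deposited table, against -0.87 for all peaks. Another RUNX2 peak, without a counterpart, stood at -1.42 there.

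Cytokine and kinase signalling genes gave 21 peaks in 11 of 52 listed genes, all 21 below 0 (92.3% over all peaks), with a median of -1.25 in the authors' first deposited table. Lower by at least 1 were 11 of them (52.4%), against 38.9% of all peaks. RPTOR, the mTORC1 subunit that recruits substrates, held 6 of them, and without RPTOR the median was -0.94 in the authors' first deposited table. The strongest RPTOR peak had 95 knockout and 437 control reads, with -1.73 in the authors' first deposited table, against -2.20 in the second. A weaker RPTOR peak, with 57 knockout and 171 control reads, stood at -0.01 in the authors' first deposited table and at -1.58 in the second. The tables thus placed this peak differently, while the strongest was low in both. RPTOR lies on chromosome 17, where other peaks had medians of -1.03 and -1.51 in the authors' first and second deposited tables. SYK, a tyrosine kinase of immune receptors, held a peak at -1.42, and PRKCH, a protein kinase C, 1 at -0.62 in the authors' first deposited table. SH2B3, an adaptor that restrains cytokine receptors, had 115 knockout and 302 control reads, with -0.94 and -1.39 in the authors' first and second deposited tables.

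Chromatin regulators gave 29 peaks in 18 of 58 listed genes. The median was -0.95 in the authors' first deposited table, with 14 peaks lower (48.3%, against 38.9% of all peaks) and 1 higher by at least 1 (0.511% of all peaks). STAG2, a cohesin subunit, had 60 knockout and 256 control reads, with -1.08 and -2.09 in the authors' first and second deposited tables. ARID1A, a subunit of the BAF remodeller, had 82 knockout and 276 control reads, with -1.03 and -1.76 in the authors' first and second deposited tables. In DNMT3A, a DNA methyltransferase, the 3 peaks were all lower by at least 1 in the authors' first deposited table, at -1.04, -1.95 and -1.53. The DNMT3A peak at -1.04 had 131 knockout and 247 control reads and stood at -0.91 in the authors' second deposited table. TET3, a relative of TET1, held 2 peaks, at -2.11 and -1.95 in the authors' first deposited table. Both DNMT3A and TET3 lie on chromosome 2, where other peaks had a median of -1.09 in that table, against -0.87 for all peaks. The only peak higher by at least 1 was in ARID2, another remodeller subunit, at 1.22 in the authors' first deposited table and with only 25.8 normalised reads. The weak peaks of TET2 (0.76) and KMT2E (0.71) were also above 0 in the authors' first deposited table.

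Mitochondrial genes, which the series title brings into the question, gave 14 peaks in 11 of 90 listed genes. Their median stood at -0.71 in the authors' first deposited table, with 4 peaks lower by at least 1 (28.6%, against 38.9% of all peaks). MTHFD1L, a mitochondrial folate enzyme, held peaks at -1.22 and -1.68 in the authors' first deposited table. Its joined peak had 80 knockout and 138 control reads and stood at -0.79 in the authors' second deposited table. PCCA, a subunit of propionyl-CoA carboxylase, held peaks at -0.76 and -0.37, OGDH, of the citric acid cycle, 1 at -0.66, and NDUFAF6, an assembly factor of complex I, 1 at -0.59 in the authors' first deposited table.

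Leukaemia stem cell and survival genes were few. The stem cell and surface list had 10 peaks in 6 of 30 genes, a median of -0.83 and 3 peaks lower by at least 1 in the authors' first deposited table (30%, against 38.9% of all peaks). IL1RAP, a coreceptor on leukaemic stem cells, held a peak at -1.92 in the authors' first deposited table. PTPRC, which encodes the leukocyte antigen CD45, held 3, and its joined peak had 69 knockout and 224 control reads. CDK6, a cell cycle kinase, held 3 peaks from -1.64 to -0.02 in the authors' first deposited table, and ARHGAP22 held 1 at -0.47. The apoptosis and p53 list had 4 peaks in 2 of 31 genes. BCL2, the inhibitor of apoptosis, held 3 at -1.17, -1.79 and -0.84, and ZMAT3, a p53 target that binds RNA, 1 at -2.32 in the authors' first deposited table. Among t(8;21) genes, HDAC1, a histone deacetylase, held a peak at -1.71 and RUNX1T1 1 at -0.35 in the authors' first deposited table. The myeloid differentiation list had 2 peaks, both in LRRK1 (-1.49 and -1.73), among 37 genes in the authors' first deposited table. Of 39 lymphoid, erythroid and non-blood marker genes, VWF of endothelium and platelets held 2 peaks (-1.78 and -0.65) and ZAP70 of T cells 1 (-0.23) in the authors' first deposited table. Across all lists 0 peaks passed an adjusted p of 0.05.

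Named by size among peaks at or above the median level, the lowest peak in the first table lay in LPP, a focal adhesion protein, at -2.54 in the authors' first deposited table. DENND1A, an activator of Rab GTPases, stood at -2.33 and the protein kinase C gene PRKCA at -2.23 in the authors' first deposited table. The PRKCA peak had 51 knockout and 242 control reads and stood at -2.24 in the authors' second deposited table, so it was low in both. PRKCA lies on chromosome 17, where other peaks had medians of -1.03 and -1.51 in the authors' first and second deposited tables. PAG1, a membrane adaptor that binds CSK, stood at -2.14 in the authors' first deposited table and at -1.48 in the second, with 76 knockout and 212 control reads. MOXD1, a monooxygenase, and TNIK, a kinase of Wnt signalling, were at -2.18 and -2.15 in the authors' first deposited table. ZMAT3 and TET3, described with their lists, were also among the 8 lowest.

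At the other end, 2 of the 8 highest of these stronger peaks were above 0. TBC1D16, a Rab-inactivating protein, stood at 0.49 and DAP, a negative regulator of autophagy, at 0.08 in the authors' first deposited table. Peaks in PCMTD2 and in GRID1, a delta glutamate receptor, stood at 0.00, and those in MAP3K5, a stress-activated kinase, and PTK2, the focal adhesion kinase, at -0.03 and -0.16 in the authors' first deposited table. CAMK2G, a calmodulin-dependent kinase, stood at -0.11 there but at -1.31 in the authors' second deposited table, with 169 knockout and 419 control reads. The pseudogene CROCCP2 stood at -0.12 and -0.29 in the authors' first and second deposited tables, with 176 knockout and 215 control reads. Near-identical copies of CROCCP2 make the placement of its reads uncertain.

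In the second table the lowest stronger peaks lay in VMP1, an autophagy membrane protein (73 knockout and 360 control reads), RPTOR, ANTXR1, a cell surface receptor (100 and 446), and ARHGAP25. Their values were -2.30, -2.20, -2.15 and -2.13 in the authors' second deposited table. VMP1 stood at only -0.33 in the authors' first deposited table, whereas the other 3 were at or below -1.10. AKNA, an AT-hook protein, had 90 knockout and 385 control reads, and ALDH1A2, which makes retinoic acid, 103 and 410. The peak annotated to ALDH1A2 lay outside the RefSeq span of that gene. SLC38A12 (TMEM104 in older annotation) had 226 knockout and 873 control reads. By the authors' second deposited table these 3 stood between -2.10 and -1.94. VMP1, RPTOR and SLC38A12 lie on chromosome 17, ANTXR1 and ARHGAP25 on 2, AKNA on 9 and ALDH1A2 on 15. Other peaks of these chromosomes had medians of -1.51, -1.35, -1.44 and -1.20 in the authors' second deposited table, against -1.23 for all peaks. The part of the chromosome in the values of these genes was not tested. The highest stronger peaks were all still below 0. DAP had 197 knockout and 260 control reads (-0.40), FRMD8, a partner of the iRhom proteins, 161 and 261 (-0.70), and AGO2, the slicing Argonaute, 184 and 335 (-0.86) in the authors' second deposited table. By the authors' second deposited table, MAST3, WDTC1, RHOF, PLEKHA2 and PDGFRA followed, between -0.89 and -0.92. Most peaks annotated to PDGFRA lay outside its RefSeq span. The DAP peak of the second table is another one than that of the first. This second DAP peak stood at -1.17 in the authors' first deposited table. The peaks of FRMD8 and AGO2 stood at -1.31 and -0.92 there, against -0.87 for all peaks. MAST3 and WDTC1 stood higher, at -0.29 and -0.42 in the authors' first deposited table.

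The strongest later intron peaks were lower in the knockout too. SYNJ2, a phosphoinositide phosphatase, had the highest level, 1218 normalised reads over 1153 bp, and stood at -1.17 and -1.58 in the authors' first and second deposited tables. CTNND2, a delta-catenin, had 1136 normalised reads over 705 bp and stood at -1.33 and -1.56 in the authors' first and second deposited tables. PLEKHO2 had 1003 normalised reads over 809 bp and stood at -0.89 and -1.19 in the authors' first and second deposited tables, though this peak lay outside its RefSeq span. All 3 were lower in the knockout in each table, as were 92.3% of all peaks in the first and 98.6% in the second. The medians of all peaks were -0.87 and -1.23 in the authors' first and second deposited tables, and PLEKHO2 lay near both. ATP9B, a phospholipid flippase, had 1128 normalised reads in the first table but 44 knockout and 121 control reads in the second. The values stood at -1.50 and -1.46 in the authors' first and second deposited tables. SLC38A12 (891 normalised reads) and a transcript without a gene identifier, ENST00000671314.1 (838), completed the 6 highest levels, at -1.23 and -1.54 in the authors' first deposited table.

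Peaks of 1 host gene differed nearly as much as peaks of different genes. Over 448 host genes with at least 2 later intron peaks, the pooled SD of the log2 fold change within genes was 0.615, against 0.645 over the same 1153 peaks. LOC101928269, a non-coding RNA gene of chromosome 21, held 9 peaks from -1.52 to 0.04 in the authors' first deposited table. Its joined peaks had 49 knockout and 185 control reads, and 76 and 260. PDGFRA, a receptor tyrosine kinase, held 8 peaks from -1.66 to 0.39 in the authors' first deposited table, all in 1 long intron of a transcript annotated to it. Only 1 of the 8 lay inside the RefSeq span of PDGFRA, and the same was true of 1 of the 9 peaks of LOC101928269, so the host name may differ from the gene at that place. Over all hosts with a symbol, 310 peaks (11.4% of the class) lay outside the RefSeq span of their host. The next was FOXP1 with 7 peaks.

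Hosts with 6 peaks each were CDH23, CUX1, ERC2, FNDC3B, PRKCA, PTK2B and RPTOR. The PRKCA peaks ran from -2.23 to 0.15, and those of ERC2, a presynaptic scaffold, from -2.25 to 0.33 in the authors' first deposited table. FNDC3B peaks stood between -1.50 and -0.72 and those of CUX1, a homeobox repressor, between -1.01 and -0.26 in the authors' first deposited table. For CDH23, a cadherin, the range was -1.0 to 0.03, and for PTK2B, a kinase related to PTK2, -0.80 to 0.12 in the authors' first deposited table. So FOXP1, FNDC3B, CUX1 and RPTOR had every value below 0 in the authors' first deposited table. The other 6 of these 10 hosts had at least 1 peak above 0. As background, 85.7% of later intron peaks and 92.3% of all peaks were below 0 in the authors' first deposited table. Whether any of these hosts departed from that background was not tested.

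**Figure D4:**
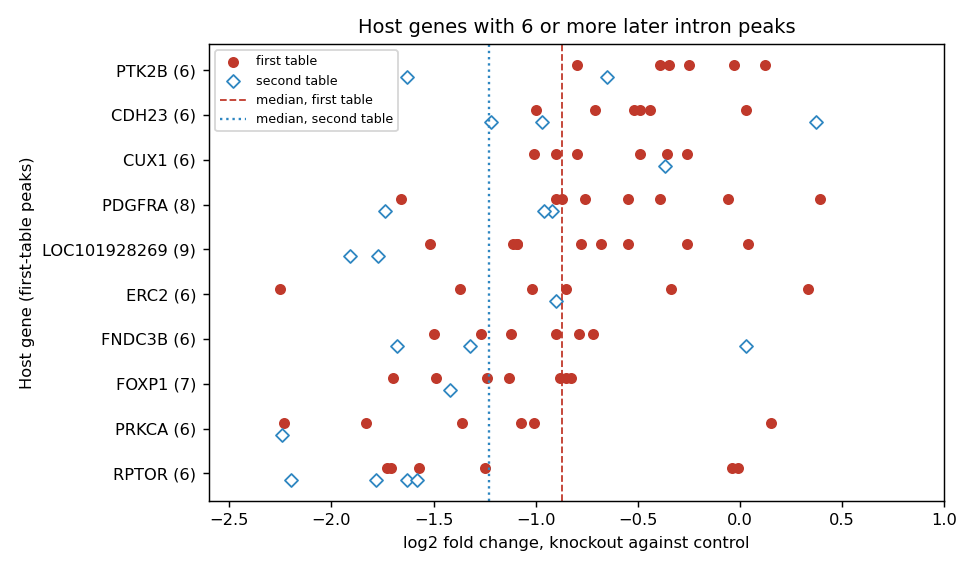
Log2 fold change (horizontal axis) of each later intron peak in the host genes with at least 6 of them (vertical axis, number of peaks in brackets), as circles for the first table and open diamonds for joined peaks of the second, with vertical lines at the median of all peaks of each table. In the first table PDGFRA spans -1.66 to 0.39 and FOXP1 -1.7 to -0.83.

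The 31 peaks higher by at least 1 were weak, with a median of 34.8 normalised reads and a highest level of 119. The highest was in LOC100507412 on chromosome 21, at 2.18 and 0.45 in the authors' first and second deposited tables, with 198 knockout and 145 control reads. It lies on the short arm, where repeated sequence makes the placement of reads uncertain. LIN28A, an RNA-binding protein of stem cells, was the only other one with a counterpart. It stood at 1.25 in the authors' first deposited table but at -0.96 in the second, with 42 knockout and 81.6 control reads. AAK1, a kinase of endocytosis, stood at 1.51 and KCNQ1, a potassium channel, at 1.37 in the authors' first deposited table, with 44.6 and 41.6 normalised reads. Peaks at or above 0 in the second table numbered 4, in LOC100507412, CDH23 (94 knockout and 72.5 control reads), ZCCHC2 (40 and 34.1) and FNDC3B (62 and 60.5). The last 3 stood at -0.44, -0.81 and -0.79 in the authors' first deposited table.

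Chromosomes differed. The medians of later intron peaks ran from -0.99 on chromosome 9, -0.94 on chromosome 2 and -0.85 on chromosome 17 to -0.49 on chromosome 20, -0.48 on chromosome 8 and -0.47 on chromosome 16 in the authors' first deposited table. Over the 16 chromosomes with at least 10 joined peaks, 17 (-1.66) and 9 (-1.63) were lowest and 8 (-0.95) highest in the authors' second deposited table. With fewer joined peaks, chromosome 13 (6 peaks) stood at -1.795, chromosome 20 (7 peaks), among the highest in the first table, at -1.49, and chromosome 16 (9 peaks) at -1.29 in the authors' second deposited table. On 21 of 23 chromosomes the later intron median of the first table was above that of the other peaks of the same chromosome. In the second table it was below on 13 of those 16. Other peaks of the second table, here and in the bins that follow, include those without a counterpart in the first. For the 2598 and 495 peaks in fixed bins of 5 Mb that held at least 10 other peaks, measured against the median of those, the class median stood at 0.15 by the authors' first deposited table, and at -0.10 by the second. Weak peaks make up more of the class than of the other peaks, and their part in these chromosome medians was not tested. Without chromosomes 2, 8, 9 and 17 the medians were -0.73 and -1.28 in the authors' first and second deposited tables.

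**Figure D5:**
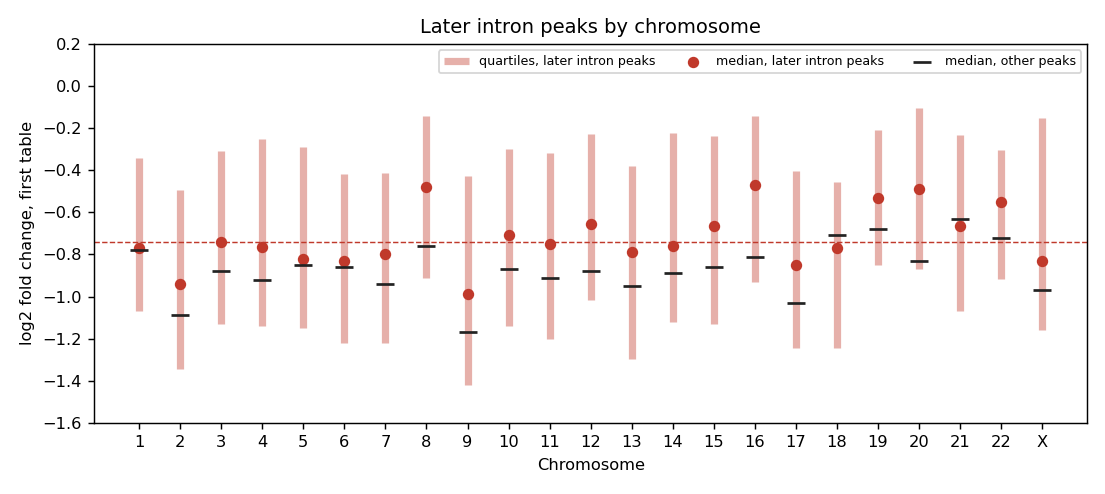
Log2 fold change in the first table (vertical axis) by chromosome (horizontal axis), with the median (point) and quartiles (bar) of later intron peaks, the median of other peaks (dash) and a dashed line at the median of all later intron peaks, -0.74. Chromosome 9 is lowest (-0.99) and chromosome 16 highest (-0.47) for later introns.

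The labelled cell type was checked against marker genes. Promoter peaks were present for 5 of 8 myeloid marker genes (CD34, KIT, SPI1, CEBPA and GFI1, from 89.3 to 1113 normalised reads) and none was listed for MPO, CD33 and RUNX1T1. They were also present for 3 of 6 lymphoid, 1 of 5 erythroid or megakaryocyte and 1 of 3 non-blood markers, at 90.5 to 282 normalised reads. An accessible promoter does not show that a gene is expressed.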

How the data were processed

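The authors deposited 2 tables of peaks in hg38 with 1 row per peak. Per the submitters' processing notes, the tools included Bowtie2, cutadapt and SAMtools, with ChIPseeker, deepTools and MACS2 2.1.2. Read shifting, duplicate removal and the scaling of libraries are not given in the sources used here. Per the file headers, the second deposited table gives log2 levels of the libraries labelled #2 (knockout and control). It also gives a log2 fold change, a p-value and a p-value adjusted over peaks. In the first deposited table the columns carry numbers for names, so its mean log2 level, log2 fold change and p-values were identified by order and range. Its direction, treated against control, was read from the table's name. Its 2 further columns of levels were not used, because they name no library.

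Deposited log2 levels were turned back into reads. All 168 weak knockout values checked came out whole within 0.005 on the log2 scale, and control reads had been multiplied by 0.919. Levels were compared within a table, since the tables were scaled separately. Each later intron peak was paired with the second-table peak of largest overlap (1 bp or more), and 1 such peak was shared with a peak of another class. The level trend was removed with 20 bins of equal size, and regions were 5 Mb bins with at least 10 other peaks. A host gene is that of the annotated transcript, and 2468 of the 2724 were matched to RefSeq symbols of GRCh38.p14. Python 3.11.15, numpy 2.4.6, pandas 2.3.3, scipy 1.17.1 and matplotlib 3.10.9 were used, and the code was tested on simulated data.

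No test was computed from the tables: without read counts mapped to all 4 libraries, the count test of the design gave way to the authors' deposited p-values. Peak sequences were not used, as they need a genome. Named peaks were, per table, the 8 highest and 8 lowest at or above the median level of the table, 1 per gene, and the 6 with the highest level. The 5 hosts with the most peaks were named with all ties, and up to 4 genes per list. The rule asked first for peaks past an adjusted p of 0.05, which 0 passed. Other genes and peaks (ETV6, RUNX2, TET2, TET3, KMT2E, ARID2, the peaks above 0 and those at start sites) were chosen after their values were seen. Some genes and 1 gene list that the rules named are not reported here. The class, the lists and the rules were chosen with earlier results of these data known.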

Additional observations from a re-analysis of the deposited data

How the results depend on the processing

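For the later intron median in the authors' first deposited table (-0.74), centring on all peaks gave 0.13 and removal of the regional median 0.15, both reversed. Peaks at or above the median level gave -1.04 and 1 peak per gene gave -0.78. In the authors' second deposited table (-1.31), centring gave -0.08, the regional median -0.10 and the level filter -1.43. With the level trend removed, later introns minus promoters went from 0.18 to -0.0325 in the first table, a reversal, and from -0.06 to -0.135 in the second, and later minus first introns from 0.04 to 0.0075 in the first. Counts of peaks lower by at least 1 in the first table went from 936 to 70 when centred and to 253 at a fold size of 1.5, and counts higher from 31 to 291 and to 3. In the second table, lower counts went from 400 to 3 and to 164, and higher counts from 0 to 8 when centred. At an unadjusted p under 0.05 the first table listed 82 later intron peaks in place of 0. Centring and filters act by their own construction, and the cause of the other shifts was not tested. The alternatives added after the data were seen gave -0.74 without start-site peaks, -0.73 without chromosomes 2, 8, 9 and 17 and -0.73 with only peaks inside the host span, and -1.28 in the second table without those chromosomes. An adjusted p of 0.1 could not change a count, as the smallest adjusted p was far above it.

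No paired analysis was possible because the first table names no library and the second has 1 library per group. For the same reason the planned edgeR fit, DESeq2 size factors, replicate block and leave-one-out fits were not run. With a median of 69.1 knockout reads per joined peak, counting error alone reaches about 0.404 on the log2 scale in a single peak, replicate spread adds to it, and the depth behind the first table is unknown.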
